A study of Mus with 15 samples.

Results

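The Nkx genes encode homeodomain transcription factors of the NK class, which pattern the embryo and fix the identity of many organs and neuron types. Described here is the histone mark H2AK119ub1 (H2Aub), a single ubiquitin on the tail of histone H2A, at 10 Nkx genes of the mouse thalamus, namely Nkx1-2, Nkx2-1, Nkx2-2, Nkx2-3, Nkx2-4, Nkx2-5, Nkx2-6, Nkx2-9, Nkx6-1 and Nkx6-2. They are 10 of 21887 protein-coding genes placed on chromosomes 1 to 19, X and Y. Each gene was given a window of its mm10 body plus 5 kb on each side, and every H2Aub peak that touched the window by at least 1 bp was counted. The length under peaks inside the window is called the covered length. A peak that ran past the window kept its full width where widths are given.

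H2Aub is placed by Polycomb repressive complex 1 and accompanies repressed chromatin. Genes of developmental regulators, homeobox genes among them, are classical Polycomb targets and stay under such marks over broad domains in differentiated cells that do not use them. In the embryonic brain, Nkx2-1 marks the hypothalamus and ventral telencephalon, and Nkx2-2 marks ventral progenitors and later the oligodendrocyte lineage. Nkx2-5 is best known from the heart.

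The chromatin was from thalami of mice aged 2 to 4 months, profiled by ChIPmentation, in which sequencing adapters are inserted into immunoprecipitated chromatin by the Tn5 transposase. All mice carried a floxed Maged1 allele. The controls (WT) kept the gene, and the conditional knockouts (cKO) also carried a Cre recombinase driven by the Vglut2 promoter, so cells of the thalamus that never used this promoter retained Maged1. After 3 days of saline injections the mice were injected intraperitoneally with cocaine (20 mg/kg) or again saline on 5 days, and each sample pooled 3 to 4 thalami according to the labels, where the study's methods allow fewer. Hemizygous males on a C57Bl6J background are described in the study's methods. Cocaine was given to the mice of 3 WT and 2 cKO libraries and saline to those of 3 WT and 3 cKO libraries, each with a peak list of its own. A further 4 samples of input chromatin were not analysed here.

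The 11 lists differed in length for reasons that the lists alone cannot tell. No list held read counts, so the depth behind a peak is unknown. The replicate 1 libraries of both cKO groups stood apart, with 54653 and 80713 peaks, a highest fold enrichment over input of 31.2 and 52.6, and a median width of 206 and 198 bp. The other 9 lists held 7271 to 26055 peaks with a highest fold enrichment of 5.98 to 12.2 and a median width of 242 to 429 bp. WT cocaine lists covered 10.4 to 17.2 Mb of the genome and WT saline lists 5.55 to 11.1 Mb. Maged1 itself had a peak in 0 of 11 libraries, so the lists neither show nor exclude its deletion, and peaks of a repressive mark could not check the tissue label. In bulk tissue, a longer domain in the cells that carry it and more cells that carry it cannot be told apart.

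All 10 Nkx genes had an H2Aub peak in all 11 libraries, 110 of 110 pairs of gene and library. Among all protein-coding genes, 6.76% had a peak in every list, and among the 11539 that are no longer than the longest Nkx gene the share was 5.82%. By group, a peak in every library was found for 16.6% (cocaine) and 10.4% (saline) of protein-coding genes in WT and for 20.7% and 8.94% in cKO. When each list was cut to its 7271 strongest peaks, the length of the shortest list, 102 of 110 pairs kept a peak. The pairs lost were 6 in cKO cocaine replicate 1 and 2 in cKO saline replicate 1. With q at most 0.01, 105 of 110 pairs kept a peak, and cKO saline replicate 3, the shortest list, had lost Nkx2-2, Nkx2-4, Nkx6-1 and Nkx6-2. The remaining pair lost was Nkx1-2 in WT cocaine replicate 3, a list of 15874 peaks.

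The share of the window under peaks, which allows genes of unequal length to be compared, spanned a wide range within the family. Nkx2-3 led with a mean of 94.4% ± 5.69 (SD, n = 11 libraries), the 6th highest of 21887 protein-coding genes. Nkx2-5 (76.6% ± 13.7), Nkx6-1 (76.2% ± 10.5) and Nkx2-1 (75.6% ± 14.7) formed a second level. Nkx2-6 (44.2% ± 10.7), Nkx2-4 (40.5% ± 16.6), Nkx2-9 (39.2% ± 13.8), Nkx6-2 (37.4% ± 8.41) and Nkx2-2 (36.6% ± 8.27) formed the next. Nkx1-2 was the least covered at 24.3% ± 5.95, rank 283, against a median of 0.0897% over all protein-coding genes.

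Across each step the 2 genes next to each other in this order kept it in every library, although levels crossed elsewhere. Nkx2-3 exceeded Nkx2-5 in 11 of 11 libraries by 17.8 ± 10.0 percentage points (SD), Nkx2-1 exceeded Nkx2-6 in 11 of 11 by 31.5 ± 9.05, and Nkx2-2 exceeded Nkx1-2 in 11 of 11 by 12.3 ± 8.75. Neighbours inside a level kept their order in only 5 to 8 of 11 libraries, with mean differences of 0.397 to 3.69 points that were smaller than their SD. Those neighbours are not told apart. In WT cocaine replicate 1 both Nkx2-1 and Nkx2-3 were at 100%, and in cKO cocaine replicate 1 Nkx1-2 (26.1%) exceeded Nkx2-4 (23.1%).

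**Figure D1:**
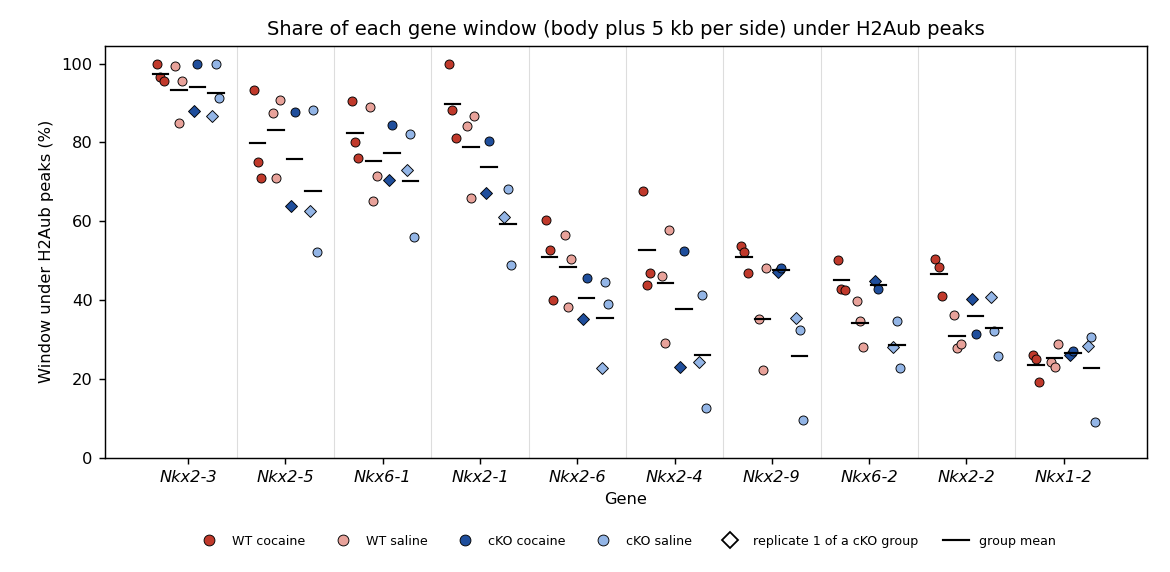
Percent of each gene's window (body plus 5 kb on each side) under H2Aub peaks, linear axis from 0, for the 10 Nkx genes in order of their mean. Each point is a library, coloured by group, a diamond marks replicate 1 of a cKO group, and short lines are group means. Nkx2-3 sits at 85.0% or higher in all 11 libraries, while Nkx1-2 reaches 30.7% at most.

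Nkx2-3, Nkx2-5 and Nkx2-6 form the cardiac branch of the family, with roles in heart, pharynx, spleen and gut. Nkx2-3 (chromosome 19, 43612325 to 43615892), needed for the spleen and for gut lymphoid tissue, carried the widest single peak of the family, although Nkx2-1 (12803 bp) passed it in WT cocaine replicate 2 (12270 bp) and Nkx2-5 (14131 bp) in WT saline replicate 3 (12144 bp). Its covered length was 13568, 13116 and 12957 bp with cocaine and 13484, 11532 and 12991 bp with saline in WT, and 11946 and 13568 bp with cocaine and 11781, 13568 and 12377 bp with saline in cKO. A value of 13568 bp is the whole window, reached in 3 libraries of 3 different groups, and the groups overlap throughout. The gene body was covered from end to end in 10 of 11 libraries, and 10232 bp of the window, 75.4%, lay under a peak in every list. The flanks also hold the non-coding gene Gm20467 and part of another, Gm34922, so peaks there are not assigned to Nkx2-3 alone.

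The widest Nkx2-3 peak measured 27378 bp in WT cocaine, 22452 bp in WT saline, 23246 bp in cKO cocaine and 20836 bp in cKO saline. Within its own list this peak ranked between 2nd and 56th by width. Sides are named by coordinate, since the gene table gives no strand. On the lower-coordinate side the peaks left the window in all 11 lists, reaching from 6.68 kb (cKO saline replicate 1) to 18.7 kb (WT cocaine replicate 1) beyond the gene.

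Nkx2-5 (chromosome 17, 26838664 to 26844988), a core regulator of heart formation, was covered over 15243, 12262 and 11569 bp with cocaine and 14282, 11595 and 14806 bp with saline in WT, and 10427 and 14332 bp with cocaine and 10202, 14399 and 8502 bp with saline in cKO. The groups overlap, and libraries of 1 group differed by several kb. Its body was fully covered in 7 libraries, and 5893 bp of the window lay under a peak in all 11. The widest peak per group was 20127 bp in WT cocaine, 14131 bp in WT saline, 8527 bp in cKO cocaine and 15296 bp in cKO saline.

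Nkx2-6 (chromosome 14, 69171802 to 69175540), which acts with Nkx2-5 in the pharynx and heart of the embryo, was covered less. Its values were 8295, 7220 and 5512 bp with cocaine and 7782, 5260 and 6926 bp with saline in WT, and 4823 and 6282 bp with cocaine and 3115, 6145 and 5365 bp with saline in cKO. These groups overlap as well, and the lowest value was that of cKO saline replicate 1. The widest peak was 7655 bp in WT cocaine, 6227 bp in WT saline, 5543 bp in cKO cocaine and 3724 bp in cKO saline.

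Nkx2-6 was also where the cKO replicate 1 lists looked least like the others. In those lists the region held several short peaks, of which 1 of 1836 bp (cKO cocaine) and 1 of 1370 bp (cKO saline) sat at the lower-coordinate end of the gene with a fold enrichment of 22.2 and 23.1 and a −log10 q of 61.8 and 59.5. By fold enrichment they ranked 55th of 54653 and 34th of 80713 peaks in their lists. In the other 9 lists the highest fold enrichment at Nkx2-6 was 3.91 to 4.92. Both lists also had a narrow peak of 206 and 223 bp, 6.7 kb above that end, with 11.9-fold and 15.5-fold enrichment. Because these 2 libraries are replicate 1 of both treatments, the sharp peaks were seen with both cocaine and saline. The remaining 3 cKO libraries had 4.16-fold, 4.27-fold and 4.53-fold enrichment at most, inside the range of the WT lists.

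At 9 of the 10 genes the cKO replicate 1 libraries had the highest fold enrichments, led after Nkx2-6 by Nkx2-1 with 10.9 and Nkx2-5 with 10.6, both in cKO saline replicate 1. Nkx6-2 was the exception, with 4.36 and 4.16 in these libraries against 3.31 to 4.78 in the other 9. Over the 10 genes the other 9 lists stayed between 3.31 and 5.51. Fold enrichments are the caller's own values and were not rescaled between libraries.

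**Figure D2:**
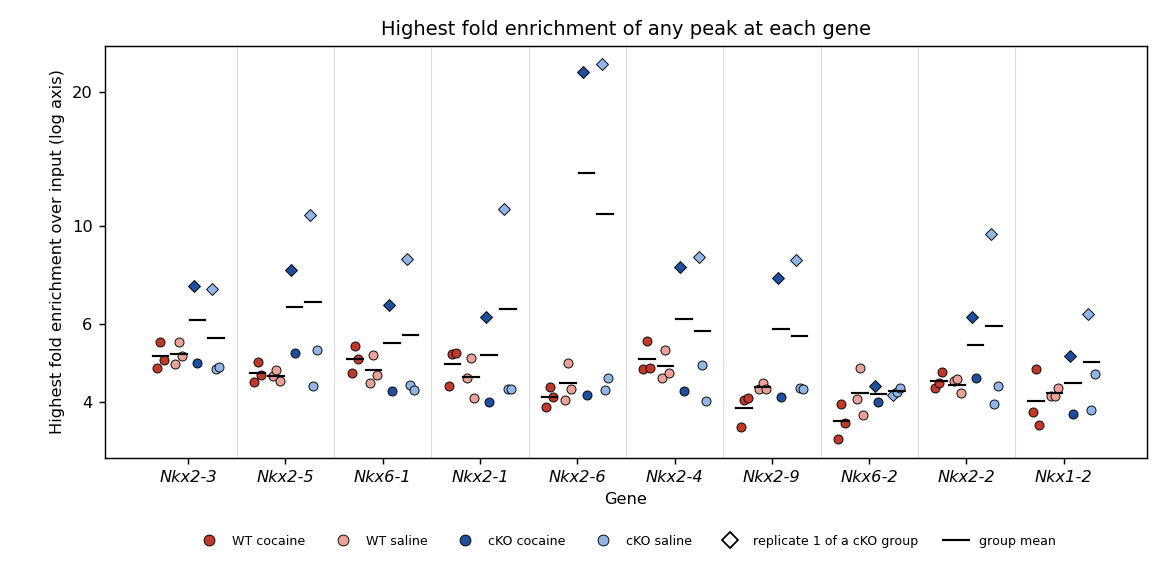
Highest fold enrichment over input of any peak at each gene, log axis, with the genes in the order of their covered share. Each point is a library and diamonds mark replicate 1 of a cKO group. The diamonds at Nkx2-6 reach 22.2 and 23.1, whereas the circles of the other 9 lists stay between 3.31 and 5.51 over all 10 genes.

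Nkx2-1 and Nkx2-4 are close relatives expressed in the ventral forebrain, and Nkx2-1 also specifies lung and thyroid. Nkx2-1 (chromosome 12, 56531935 to 56536908) had a covered length of 14974, 13215 and 12137 bp with cocaine and 12590, 9848 and 12998 bp with saline in WT, and 10060 and 12057 bp with cocaine and 9137, 10224 and 7321 bp with saline in cKO. The flanks also hold parts of the non-coding genes Sfta3-ps and Gm26973, so peaks there are not assigned to Nkx2-1 alone. In WT cocaine replicate 1 a single peak of 25572 bp spanned the whole window. The widest peaks of the other groups were 9214 bp (WT saline), 8777 bp (cKO cocaine) and 6292 bp (cKO saline), and 3684 bp lay under a peak in all 11 lists. All WT cocaine values were above both cKO cocaine values, and the remaining pairs of groups that share a treatment or a genotype overlap.

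Nkx2-4 (chromosome 2, 147083337 to 147085439) was the most variable member relative to its window. Its covered length was 8186, 5315 and 5682 bp with cocaine and 5589, 3512 and 6986 bp with saline in WT, and 2797 and 6358 bp with cocaine and 2927, 5006 and 1515 bp with saline in cKO. All groups that were compared overlap. The short body was fully covered in 6 libraries, the common core was 415 bp, and the widest peak was 7918 bp in WT cocaine, 4183 bp in WT saline, 5490 bp in cKO cocaine and 2687 bp in cKO saline.

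Nkx2-2 and Nkx2-9 are the other ventral pair, induced by Sonic hedgehog signalling in the neural tube, where Nkx2-2 directs ventral interneuron and oligodendrocyte fates. Nkx2-2 (chromosome 2, 147176485 to 147195434) has the longest body of the family at 18.9 kb. This body also holds the long non-coding RNA gene 6430503K07Rik and part of another, Nkx2-2os, so a peak there is not assigned to Nkx2-2 alone. Covered length was 14622, 14027 and 11854 bp with cocaine and 10464, 8065 and 8376 bp with saline in WT, and 11633 and 9112 bp with cocaine and 11769, 9279 and 7431 bp with saline in cKO. Every WT cocaine value lies above every WT saline and every cKO cocaine value.

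The H2Aub at Nkx2-2 was a row of separate peaks, 4 to 12 per library, and 95.2% of the covered length lay inside the body. Just 307 bp were under a peak in all 11 lists, near the higher-coordinate end of the body. The widest single peak was 9172 bp in WT cocaine, 2407 bp in WT saline, 3304 bp in cKO cocaine and 6303 bp in cKO saline.

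Nkx2-9 (chromosome 12, 56611389 to 56613569), a partner of Nkx2-2 in the ventral hindbrain and spinal cord, lies within the non-coding gene Gm26973. It was covered over 6544, 6365 and 5708 bp with cocaine and 4290, 2710 and 5875 bp with saline in WT, and 5754 and 5865 bp with cocaine and 4307, 3951 and 1155 bp with saline in cKO. Both cKO cocaine values lie above all cKO saline values, while in WT a single saline library, replicate 3, reached into the cocaine range. The widest peak was 6365 bp in WT cocaine, 3215 bp in WT saline, 5313 bp in cKO cocaine and 2854 bp in cKO saline.

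These 4 genes lie in 2 neighbouring pairs, and the mark did not bridge them. The stretch between the windows of Nkx2-4 and Nkx2-2, 81.0 kb long, was 0 to 0.461% covered, and that between Nkx2-1 and Nkx2-9, 64.5 kb long, was 0 to 1.46% covered. The peaks were thus separate domains around each gene in every list.

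Nkx6-1 and Nkx6-2 act in ventral neural progenitors, Nkx6-1 also in motor neurons and pancreatic beta cells and Nkx6-2 in oligodendrocytes and myelination. Nkx6-1 (chromosome 5, 101659184 to 101664711) had 14070, 12455 and 11822 bp with cocaine and 13840, 10101 and 11125 bp with saline in WT, and 10941 and 13111 bp with cocaine and 11322, 12757 and 8679 bp with saline in cKO. All compared groups overlap, and 4975 bp were under a peak in all 11 lists. The widest peak was 14019 bp in WT cocaine, 7615 bp in WT saline, 11707 bp in cKO cocaine and 12395 bp in cKO saline.

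Nkx6-2 (chromosome 7, 139579376 to 139582797) carried its H2Aub on a single side. Of its covered length, 71.1% lay in the higher-coordinate flank, 28.9% in the body and 0 in the lower-coordinate flank, at which end the protein-coding gene Inpp5a overlaps Nkx6-2 by 277 bp. The non-coding gene Gm33031 spans the whole higher-coordinate flank, so the peaks there are not assigned to Nkx6-2 alone. Covered length was 6726, 5753 and 5712 bp with cocaine and 5331, 4666 and 3773 bp with saline in WT, and 6007 and 5733 bp with cocaine and 3788, 4666 and 3045 bp with saline in cKO. In both genotypes all cocaine values lie above all saline values. The widest peak was 6726 bp in WT cocaine, 5331 bp in WT saline, 4636 bp in cKO cocaine and 4015 bp in cKO saline.

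Nkx1-2 (chromosome 7, 132596239 to 132599637), a gene of the caudal epiblast and early neural plate, had the smallest domain. Its covered length was 3493, 3355 and 2575 bp with cocaine and 3241, 3088 and 3856 bp with saline in WT, and 3495 and 3612 bp with cocaine and 3798, 4111 and 1199 bp with saline in cKO. Apart from cKO saline replicate 3, the libraries lie between 2575 and 4111 bp. Most of it, 74.8%, was inside the body, with 24.9% in the higher-coordinate flank, and the widest peak was 3355 bp in WT cocaine, 3088 bp in WT saline, 3495 bp in cKO cocaine and 2531 bp in cKO saline.

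**Figure D3:**
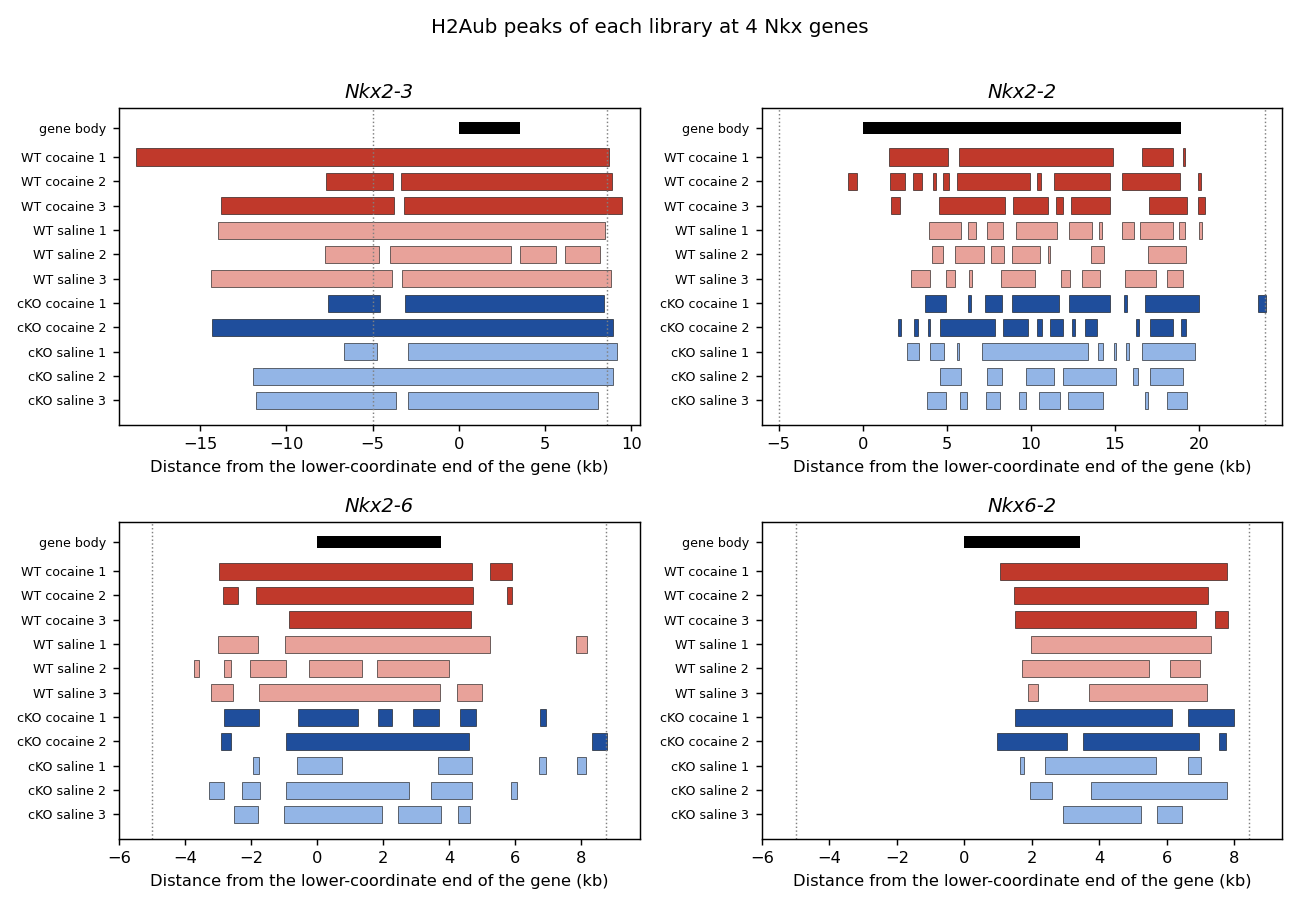
H2Aub peaks of the 11 libraries at Nkx2-3, Nkx2-2, Nkx2-6 and Nkx6-2, as distance in kb from the lower-coordinate end of the gene. Each row is a library coloured by group, the black bar is the gene body and dotted lines bound the window. Nkx2-3 lies in a domain that leaves the window, Nkx2-2 holds 4 to 12 separate peaks per library, and the Nkx6-2 peaks start inside the body and extend to the higher-coordinate side.

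**Figure D4:**
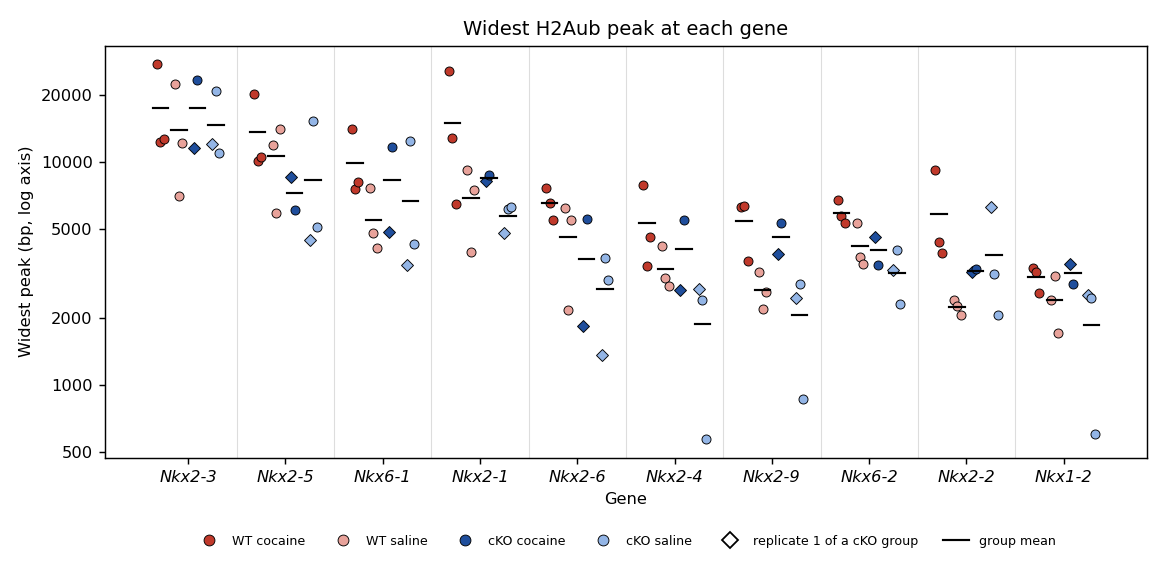
Width in bp of the widest peak touching each gene's window, log axis, 1 point per library, coloured by group, with lines at group means and diamonds for replicate 1 of a cKO group. The widest is 27378 bp at Nkx2-3 in WT cocaine replicate 1, and libraries of a group can differ several-fold at the same gene.

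To ask whether cocaine changed H2Aub at these genes in control mice, WT cocaine was compared with WT saline. Covered length was higher without overlap at Nkx2-2, by 4533 ± 1129 bp (SE, 1.51-fold), and at Nkx6-2, by 1474 ± 560 bp (1.32-fold). No member was lower without overlap. For both genes the exact permutation test, two-sided, gave p = 0.10, the smallest that 3 against 3 libraries allow, and the Benjamini-Hochberg adjusted value over all genes tested was 1.00. Of 14474 protein-coding genes with a peak in at least 1 list, 8.79% were higher in this way and 0.166% lower, and 0 had an unadjusted p under 0.05 in this or any of the other pairs of groups. The 2 of 10 members are few to set against that background. It includes genes with a peak in only 1 list, and groups that share a value of 0 bp count as overlapping. No share was computed for genes with a peak in every list, here or in the comparisons below.

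The mean covered length was higher with cocaine at 8 of 10 members and lower at Nkx1-2 and Nkx2-5, with a median difference of 1063 bp, against 0 bp over all genes tested, of which 43.6% had a higher mean. Many genes tested had little or no covered length, and the members were not matched to them for coverage. Here and in the comparisons below, this contrast therefore does not show a stronger response of the members. At Nkx2-2 and Nkx6-2 the direction turned under 1 scaling and held when the lists were made equally long. Joining peaks less than 1 kb apart left a Nkx2-2 difference of 3713 bp, with overlapping groups. When covered length was scaled by the covered length of the whole list, the difference was -1968 bp at Nkx2-2 and -1881 bp at Nkx6-2, and no member was higher without overlap while Nkx1-2, Nkx2-5, Nkx2-6 and Nkx6-1 were lower, against 4.28% of genes higher and 1.40% lower. With each list cut to 7271 peaks, Nkx2-2 and Nkx6-2 were again higher without overlap, against 8.28% of 7957 genes higher and 0.729% lower. Without WT cocaine replicate 3, Nkx2-1 and Nkx2-9 joined them, making 4, while the share of all genes that were higher grew to 17.5%. Without WT saline replicate 1 or 3 there were 3, against 15.8% and 10.5% of genes.

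Inside the gene bodies alone, 3 members were higher without overlap in WT cocaine, against 8.16% of 12136 genes, and 0 were lower, against 0.165%. These were Nkx2-2, Nkx6-2 and Nkx2-9, the last singled out after its values were seen. The Nkx2-9 body was fully covered in all 3 WT cocaine libraries and 71.8% ± 1.41 covered in WT saline, a difference of 28.2 ± 0.817 percentage points (SE; exact permutation p = 0.10, adjusted 1.00). The Nkx2-2 body was 68.4% ± 8.93 covered in WT cocaine and 45.7% ± 6.18 in WT saline, again with p = 0.10 by the exact permutation test and an adjusted 1.00.

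In cKO mice the same treatments were compared with 2 cocaine and 3 saline libraries. Covered length was higher without overlap at Nkx2-9, by 2672 ± 998 bp (1.85-fold), and at Nkx6-2, by 2037 ± 488 bp (1.53-fold), both with p = 0.20 (exact permutation test, adjusted 1.00). No member was lower, and the background was 3.81% higher and 0.0760% lower. That background again includes genes with a peak in only 1 list, and the 2 members are few to set against it. All 10 members had a higher mean with cocaine, with a median difference of 1226 bp against 27.3 bp over all genes, of which 55.2% had a higher mean. As in WT, the genes were not matched for coverage.

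Leaving out 1 library cannot make groups overlap that were apart, so Nkx2-9 and Nkx6-2 stayed without overlap by construction. Only the number of members beside them could change. With q at most 0.01 the Nkx6-2 groups overlapped, at a mean difference of 2257 bp, and Nkx2-9 alone was higher, against 1.83% of genes. Without cKO cocaine replicate 1, which left a single cocaine library, 6 members were higher without overlap, namely Nkx2-1, Nkx2-4, Nkx2-6, Nkx2-9, Nkx6-1 and Nkx6-2, against 8.01% of all genes. Without replicate 1 of both cKO groups, 1 library against 2, the same 6 were higher, but so were 44.3% of genes. Without cKO saline replicate 2 there were 4, against 5.11% of genes, and without cKO saline replicate 3, the shortest list, Nkx1-2 was lower, against 1.56%. Scaled by the whole list, or with equal numbers of peaks, 0 members were higher or lower without overlap, and the Nkx6-2 difference turned to -1108 bp and -625 bp. The shares of all genes higher and lower were 5.06% and 0.366% after scaling and 1.62% and 0.817% with equal numbers of peaks. That cut left Nkx6-2 without a peak in both cKO replicate 1 libraries, so its value there is no measure of the treatment.

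**Figure D5:**
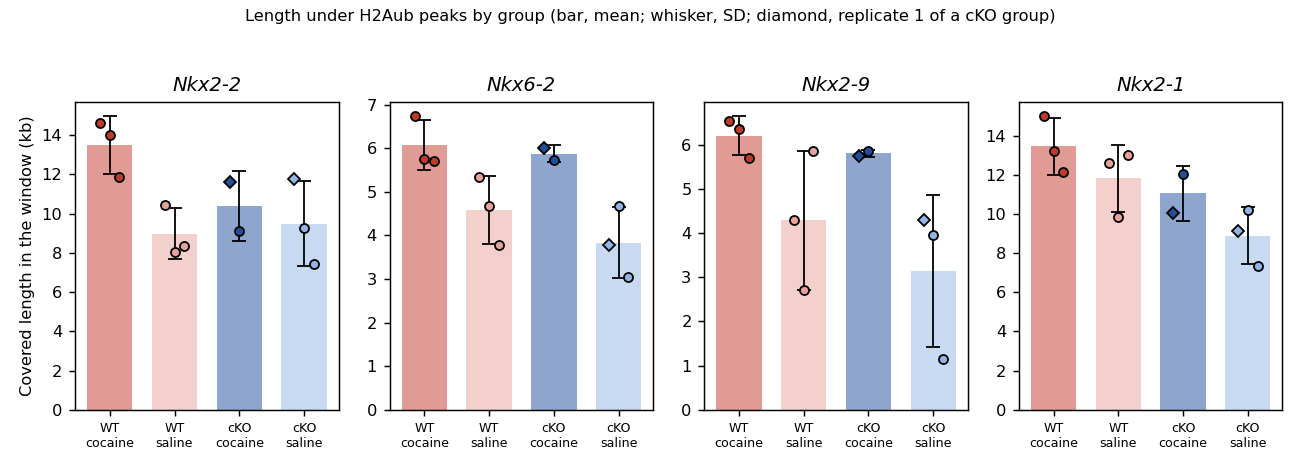
Covered length in kb, linear axes from 0, at Nkx2-2, Nkx6-2, Nkx2-9 and Nkx2-1 by group. Bars are means, whiskers SD, points libraries, and diamonds replicate 1 of a cKO group. At Nkx6-2 the cocaine libraries (5712 to 6726 bp) sit above the saline libraries (3045 to 5331 bp) in both genotypes before scaling, an order that scaling by the whole list reverses in the means.

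The genotypes were compared within each treatment, with the same groups used again. Between cKO saline and WT saline no member separated in either direction, where the background was 0.497% higher and 0.560% lower. Nkx2-2 alone had a higher mean in cKO saline, and the median member difference was -962 bp against 108 bp over all genes, of which 78.9% had a higher mean in cKO. The genes were again not matched for coverage. Without WT saline replicate 2, Nkx2-1, Nkx2-4 and Nkx2-6 were lower without overlap, against 2.07% of genes, and without cKO saline replicate 2 there were also 3, Nkx2-1, Nkx2-4 and Nkx2-5, against 1.59%.

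Between cKO cocaine and WT cocaine, the difference (cKO minus WT) was -2384 ± 1296 bp (SE) at Nkx2-1 and -3128 ± 1515 bp at Nkx2-2, both without overlap and with p = 0.20 by the exact permutation test (adjusted 0.827). Nkx1-2 was higher by 412 ± 292 bp (exact p = 0.400, adjusted 0.827), with the groups parted by 2 bp at their edges, 3495 against 3493 bp. The Nkx2-1 difference lay in the flanks, which also hold non-coding genes, since in the body alone it was -46.5 bp (94.1% against 95.1% covered) and the groups overlapped, as they did with 2 kb flanks (-964 bp), with 10 kb flanks (-4002 bp) and after scaling (-2419 bp). At their edges the Nkx2-1 groups were close as well, 12057 bp in cKO against 12137 bp in WT. At Nkx2-2 joining peaks less than 1 kb apart left -1330 bp and overlapping groups. The background was 5.44% higher and 2.68% lower. Again without matching for coverage, the median member difference was -701 bp against 74.5 bp over all genes, and 1 of 10 members had a higher mean against 61.0% of genes.

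Without cKO cocaine replicate 2, which left cKO cocaine replicate 1 alone against 3 libraries, 7 members were lower without overlap, against 4.96% of genes. Without WT cocaine replicate 3 there were 4, against 7.04%. With equal numbers of peaks 4 members were lower, against 2.19% of genes higher and 9.51% lower, and Nkx1-2 turned to -1289 bp. That cut removed every peak at 6 members from cKO cocaine replicate 1, 1 of the 2 cKO cocaine libraries, and left it 7.05 kb over the 10 genes, so these values are no measure of the genotype. After scaling by the whole list Nkx2-2 was the only member to separate, lower in cKO, against 5.95% of genes higher and 4.06% lower.

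Whether the effect of cocaine differed between genotypes was tested over the 200 arrangements of treatment within each genotype. The largest difference was at Nkx2-2, where covered length was higher with cocaine by 4533 bp in WT and by 880 bp in cKO, a difference of effects of -3653 bp (exact permutation p = 0.180, adjusted 1.00). At Nkx6-2 the effects were 1474 and 2037 bp (exact p = 0.710). No member passed an unadjusted 0.05, and 0.173% of all genes tested did, none of them after adjustment. An effect of either genotype is therefore not shown to differ from that of the other at any Nkx gene.

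Summed over the 10 windows, which hold 154 kb, covered length was 94.8 ± 10.2 kb (SD, n = 3) in WT cocaine, 83.0 ± 11 kb (n = 3) in WT saline, 84.0 ± 8.59 kb (n = 2) in cKO cocaine and 70.9 ± 13.8 kb (n = 3) in cKO saline. The ranges overlap between all groups compared. Differences were 11.8 ± 8.68 kb (SE) for cocaine in WT, 13.0 ± 10.0 kb for cocaine in cKO, -12.0 ± 10.2 kb for cKO against WT under saline and -10.8 ± 8.46 kb under cocaine. Leaving out 1 library moved them to 5.47 kb (without WT saline replicate 2) or 6.31 kb (without WT cocaine replicate 1) for cocaine in WT, and for cocaine in cKO to 5.83 kb without cKO saline replicate 3, 6.94 kb without cKO cocaine replicate 2 and 19.6 kb without cKO saline replicate 2. Under saline the genotype difference became -4.87 kb without cKO saline replicate 3, -18.4 kb without WT saline replicate 2 and -18.6 kb without cKO saline replicate 2. Under cocaine it became -4.75 kb without cKO cocaine replicate 1, -5.35 kb without WT cocaine replicate 1 and -16.9 kb without cKO cocaine replicate 2. Scaled by the whole list, the first 2 turned to -45.3 and -39.0 kb. The extremes came mostly from a pair of libraries, since WT cocaine replicate 1 had the highest covered length at 9 of 10 members and cKO saline replicate 3, with the shortest list, the lowest at 8 of 10.

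Nkx genes outside the 10 gave a wider spread. Nkx3-2, which acts in skeletal and spleen development, had 74.1% of its window covered and Nkx1-1 65.9%, both with a peak in all 11 libraries. Nkx6-3, known from the stomach, had a peak in 7 libraries and 2.94% coverage. The median of the 10 members was 42.3%, which lies between these values. Without overlap, Nkx6-3 was higher in WT cocaine than WT saline, as 8.79% of all genes were, and Nkx3-2 was higher in cKO cocaine than cKO saline, as 3.81% were.

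Among 12 genes of ventral neural tube patterning, the pathway in which several Nkx factors act, 10 had a peak in all 11 libraries and the median coverage was 19.7%. Pax7 and Pax6, dorsal and intermediate progenitor factors, had the longest covered lengths of this list with means of 20728 and 18531 bp, while the hedgehog receptor Ptch1 (8 libraries) and the hedgehog effector Gli3 (10 libraries) were covered least often. By share of the window, Pax7 had 19.5% and Pax6 46.9%, against 72.8% at Olig2. In WT cocaine against WT saline 4 of 12 were higher without overlap and 0 lower, namely Shh, Gli2, Olig2 and Pax7, beside the 8.79% and 0.166% of all genes. For cocaine in cKO 1 (Irx3) was higher and 0 lower, beside 3.81% and 0.0760%. For genotype under saline 0 were higher and 1 (Irx3) lower, beside 0.497% and 0.560%, and for genotype under cocaine 0 were higher and 3 (Olig2, Irx3 and Dbx2) lower, beside 5.44% and 2.68%. Genes other than Pax7, Pax6, Ptch1 and Gli3 were named after their values were seen.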

How the data were processed

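H2Aub was measured in 11 thalamic ChIPmentation libraries. The authors mapped reads to mm10 with Bowtie2 (2.3.4.1) and used MACS2 (2.1.1.20160309.3) in broad mode against input, 1 list per library and no replicates pooled (labels and study methods). Each deposited list gave peak starts and ends, a whole-number score, a fold enrichment (ratio) and the −log10 p and −log10 q. The deposited lists run to q of 0.0997, and all peaks were used. The study gives a minimum depth for all samples, but not the reads of each library, so list lengths were not corrected in the main values.

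Peaks were joined by position to the GRCm38.p6 gene table (coordinates of mm10), which has no strand, exons or sequence, so no promoter motif was searched. Covered length per gene and library was compared between groups by exact two-sided permutation tests with Benjamini-Hochberg adjustment over 14474 genes (Python 3.11.15, numpy 2.4.6, pandas 2.3.3), tested on simulated data. The members and gene lists were chosen with earlier results of these data known, and 1 gene of the lists is not reported here. All 10 members were named and tested, and a member's difference is printed where its groups did not overlap. Replicates were separate pools of thalami, and equal replicate numbers were not taken as pairs. Alternatives were stricter q, equal list lengths, other windows, scaling, a replicate block, and libraries left out. Joining peaks less than 1 kb apart was added after seeing the data.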

Additional observations from a re-analysis of the deposited data

How the results depend on the processing

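Presence of a peak held at q at most 0.05 for all 110 pairs, and no alternative gave a member an unadjusted p under 0.05 for a genotype difference in the cocaine effect. Counts below are members without overlap between groups, each followed in brackets by the percentage of all genes tested. With q at most 0.01, the call at Nkx6-2 for cocaine in cKO was lost, at a mean difference of 2257 bp, and that at Nkx2-9 kept. At that q, 3 were higher for cocaine in WT (4.33), 1 higher for cocaine in cKO (1.83), 1 lower in cKO saline than WT saline (0.357), and 0 higher in cKO cocaine than WT cocaine (2.33). With 7271 peaks per list the last 3 were 0 (1.62), 1 (4.24) and 0 (2.19), 4 were lower in cKO cocaine than WT cocaine (9.51), and the summed differences were -9.25 kb for cocaine in cKO, -26.0 kb for genotype under saline and -47.2 kb under cocaine, with Nkx6-2 at -625 bp (cocaine in cKO) and Nkx1-2 at -1289 bp (genotype under cocaine). That cut left cKO cocaine replicate 1 with 7.05 kb and cKO saline replicate 1 with 27.7 kb over the 10 genes, against 56.6 to 105 kb in the other lists, so its cKO values are no measure of a group difference. In gene bodies alone, 4 were higher for cocaine in cKO (3.80), 2 lower for genotype under saline (0.725), and 0 higher (5.24) and 1 lower (2.85) under cocaine, with Nkx1-2 at -138 bp. With 10 kb flanks, 1 was lower for genotype under cocaine (2.43). Scaling by the whole list gave -45.3 kb and -39.0 kb for cocaine in WT and cKO, with Nkx2-2 at -1968 bp and Nkx6-2 at -1881 bp in WT and Nkx6-2 at -1108 bp in cKO, 0 higher (4.28) and 4 lower (1.40) in WT, 0 higher in cKO (5.06), and 0 higher (5.95) and 1 lower (4.06) for genotype under cocaine. Without both cKO replicate 1 libraries 6 were higher for cocaine in cKO (44.3), and peaks joined across less than 1 kb, an alternative added after seeing the data, left Nkx2-2 overlapping between treatments in WT and between genotypes under cocaine. The cause of these shifts was not tested.

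Leaving out 1 library at a time, the summed difference ranged from 5.47 to 16.4 kb for cocaine in WT, 5.83 to 19.6 kb in cKO, -18.6 to -4.87 kb for genotype under saline and -16.9 to -4.75 kb under cocaine. Counts ranged from 2 to 4 higher for cocaine in WT (9.32 to 17.5), 2 to 6 higher (3.90 to 32.2) and 0 to 1 lower (0.138 to 1.56) in cKO, 0 to 3 lower for genotype under saline (0.581 to 5.68) and 2 to 7 lower under cocaine (3.61 to 13.1). Leaving out a library can keep or raise such a count but cannot lower it, so these ranges are no test of stability. Same-numbered WT cocaine and saline libraries had correlations of their deviations of 0.455, 0.165 and -0.246, and those in cKO 0.712 and 0.732, from 2 pairs in which the deviations of the cocaine libraries mirror each other. The numbers were therefore not taken as pairs. With a replicate block the summed differences were 11.8 kb for cocaine in WT, -12.0 kb for genotype under saline and -15.4 kb under cocaine. For cocaine in cKO the block gave 5.83 ± 0.0935 kb (SE, 2 pairs) in place of 13.0 ± 10.0 kb. It drops cKO saline replicate 3, which has no cKO cocaine partner, and leaving out that library alone also gave 5.83 kb. Under cocaine it likewise drops WT cocaine replicate 3, without which the difference was also -15.4 kb. Unknown depth limits every comparison of covered lengths.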
